A study of Mus musculus with 16 samples.

Results

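The genes of NAD salvage and of the NAD kinases were followed across 16 RNA-seq libraries of whole mouse kidney. There were 10 of them among the 23935 gene symbols of the deposited table, chosen by name: Nampt, Nmrk1, Nmnat1, Nmnat2, Nmnat3, Naprt, Nadsyn1, Nadk, Nadk2 and Nnt. Each symbol had 1 entry in the table, and the rule names the genes without using measured values, although earlier results of these data were known when it was written. All libraries came from wild-type (WT) animals and fell into 4 groups of 4: NMN before cisplatin, NR before cisplatin, cisplatin alone, and PBS. Cisplatin is a platinum-based chemotherapy drug that damages DNA and is toxic to kidney tubules, and PBS is the saline control. Nicotinamide mononucleotide (NMN) and nicotinamide riboside (NR) are NAD precursors that differ by the phosphate group that NMN carries. Kidneys were taken 3 days after cisplatin. The sources used here give no dose, strain, sex or age. They do not say either whether each library was made from a different animal, and the p-values therefore rest on a spread between libraries that may be technical.

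NAD carries electrons between metabolic reactions and is cleaved by sirtuins, PARPs and cell-surface glycohydrolases, which release nicotinamide. Nicotinamide phosphoribosyltransferase (Nampt) turns nicotinamide into NMN, an NR kinase (Nmrk1) makes NMN from NR, and the NMN adenylyl transferases (Nmnat1, Nmnat2 and Nmnat3) turn NMN into NAD. A separate branch starts from nicotinic acid, with Naprt at its first step and the NAD synthetase Nadsyn1 at its last, the step that the route from tryptophan also uses. NAD kinases phosphorylate NAD to NADP in the cytosol (Nadk) and in mitochondria (Nadk2), and the mitochondrial transhydrogenase (Nnt) passes electrons between NADH and NADP. In the kidney, the proximal tubule is rich in mitochondria and can make NAD by all of these routes.

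The values were TPM, transcript abundances per unit of length scaled to a fixed total per library, so that levels of different genes can be set side by side; the read depth behind them is unknown. Per library, the listed values added up to 860428 to 903678 TPM, and between 11535 and 12549 genes had at least 1 TPM. As a check of the tissue, the 10 proximal tubule markers were present in every group and summed to between 4975 and 6210 TPM with NMN, 4753 and 5304 TPM with NR, 642 and 994 TPM with cisplatin alone, and 6763 and 7692 TPM with PBS. All 10 were lower with cisplatin than with PBS. The 13 mitochondrially encoded mRNAs made up 22.7% to 28.3% of the listed TPM with NMN, 22.1% to 30.3% with NR, 15.6% to 17.6% with cisplatin alone, and 25.0% to 34.0% with PBS. Ribosomal protein genes made up 7.24% to 9.52%, 7.56% to 10.3%, 15.6% to 17.6% and 5.69% to 6.94% in those groups. Marker sums of podocytes, endothelial cells and fibroblasts were higher in cisplatin library 1 (47.7, 45.4 and 87.9 TPM) than in the other cisplatin libraries (up to 8.47, 16.7 and 16.3 TPM), and adipocyte markers reached 231 and 158 TPM in NR libraries 3 and 4 against 23.2 and 75.6 TPM in NR libraries 1 and 2. With cisplatin against PBS, all 4 markers of each of podocytes, endothelial cells and fibroblasts were lower, all 5 tested adipocyte markers were higher (sums of 144 to 291 TPM with cisplatin and 24.9 to 76.3 TPM with PBS), and none of 4 tested neutrophil markers was called. Over all genes tested, 40.7% were called higher and 18.6% lower in this comparison. All 5 red blood cell markers were lower, with sums of 1357 to 2882 TPM with NMN, 1268 to 2603 TPM with NR, 8.2 to 33.9 TPM with cisplatin alone and 1876 to 3820 TPM with PBS. Distal convoluted tubule markers (3 of 4 lower) summed to 278 to 488 TPM with NMN, 294 to 425 TPM with NR, 19.0 to 40.7 TPM with cisplatin alone and 414 to 629 TPM with PBS, and all 4 intercalated cell markers were lower with cisplatin (sums of 45.5 to 56.9 TPM with cisplatin and 99.5 to 139 TPM with PBS). Principal cell markers went both ways with cisplatin, with Aqp2 higher and 3 of 4 lower. Their sums were 445 to 543 TPM with cisplatin and 363 to 444 TPM with PBS. Of 4 thick ascending limb markers 2 were lower with cisplatin. Their sums overlapped, at 262 to 713 TPM with cisplatin and 459 to 1188 TPM with PBS. The part of these cell types in the results was not tested, and in whole tissue, fewer cells of a type and less RNA per cell cannot be told apart.

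With cisplatin, 1 of the 9 tested NAD genes was higher than with PBS (Nadk) and 5 were lower (Nmrk1, Naprt, Nadsyn1, Nadk2 and Nnt). Nampt, Nmnat1 and Nmnat3 were not called, and Nmnat2 was too low to be tested. Calls were made with limma on log2(TPM + 1) at an adjusted p under 0.05 over 12960 genes, of which 40.7% were called higher and 18.6% lower in this comparison. The groups did not overlap for 6 of the 9 genes, against 50.8% of all genes tested. The median log2 change of the 9 genes was -0.80, beside 0.27 over all genes tested. In total 5278 genes were higher and 2415 lower, and after median-of-ratios scaling, which brought the median of all genes to -0.00051, 3787 were higher and 3709 lower. The summed TPM of the 10 genes was 243 ± 13.8 with NMN, 245 ± 11.4 with NR, 242 ± 17.0 with cisplatin alone and 248.5 ± 25.8 with PBS (SD, n = 4 each). On the TPM scale the total thus stayed within the spread of each group while its makeup differed. The total depends on the scaling. After median-of-ratios scaling the log2 change with cisplatin against PBS was 0.52 instead of 0.84 for Nadk, and -1.15 instead of -0.84 for Nmrk1. The sum was not computed on that scale, so a preserved total is not shown.

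**Figure D1:**
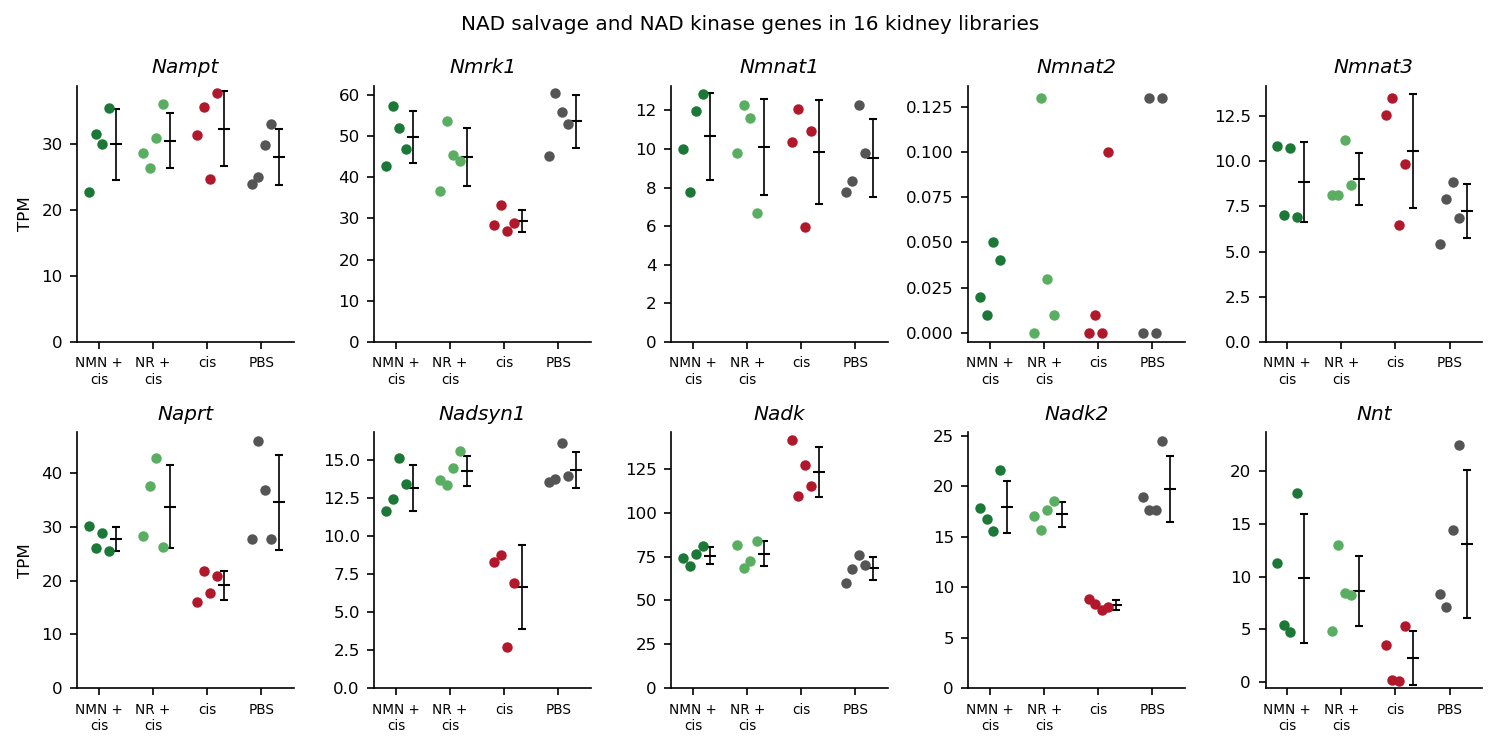
TPM of each of the 10 genes (y axis, 1 panel per gene) in the 16 libraries, as 1 point per library for NMN + cisplatin, NR + cisplatin, cisplatin (cis) and PBS; bars are the mean ± SD of 4 libraries (not drawn for Nmnat2, listed at 0 in several libraries). Nadk stands higher in the 4 cisplatin libraries (109 to 142 TPM) than in the others, and Nadk2 lower (7.73 to 8.87 TPM), while the groups overlap for Nampt, Nmnat1 and Nmnat3.

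The NAD kinases moved in opposite directions with cisplatin. Nadk, the cytosolic kinase and the most abundant of the 10 genes in every group, measured 74.4, 69.7, 76.4 and 81.2 TPM with NMN, 81.6, 68.5, 72.7 and 83.9 TPM with NR, 142, 109, 127 and 115 TPM with cisplatin alone, and 60.0, 67.7, 75.7 and 70.2 TPM with PBS. Every library given cisplatin alone lay above every library of the other groups, which overlapped each other. Nadk rose with cisplatin by 0.84 on the log2 scale over PBS (SE 0.108, limma adjusted p = 2.61e-06). It was lower with NMN than with cisplatin alone (log2 change -0.70, limma adjusted p = 3.88e-05) and lower with NR than with cisplatin alone (-0.68, limma adjusted p = 6.25e-05). The size of these changes depended on the scaling: after median-of-ratios scaling Nadk was higher by 0.52 with cisplatin over PBS (limma adjusted p = 0.00023) and changed by -0.45 with NMN against cisplatin (limma adjusted p = 0.00118).

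Nadk2, the mitochondrial kinase, measured 17.9, 16.8, 15.6 and 21.6 TPM with NMN, 17.1, 15.7, 17.6 and 18.6 TPM with NR, 8.87, 8.31, 7.73 and 8.09 TPM with cisplatin alone, and 19.0, 17.7, 17.7 and 24.5 TPM with PBS. The 4 cisplatin libraries lay close together and below all 12 others. Nadk2 fell by 1.15 on the log2 scale with cisplatin against PBS (SE 0.131, limma adjusted p = 5.75e-07). It was higher with NMN than with cisplatin alone by 1.03 (limma adjusted p = 4.95e-06) and higher with NR by 0.98 (limma adjusted p = 1.04e-05).

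Because a ratio of genes within a library does not depend on the fixed total of TPM, the kinases were also set against each other. The 1 TPM added to each gene makes this hold only in part, and least for low values. The ratio of Nadk2 to Nadk, each with 1 TPM added, was 0.25, 0.251, 0.214 and 0.275 with NMN, 0.219, 0.24, 0.253 and 0.231 with NR, 0.0692, 0.0843, 0.0681 and 0.0783 with cisplatin alone, and 0.327, 0.272, 0.243 and 0.358 with PBS. All cisplatin libraries lay below all others. On the log2 scale the ratio differed by -1.99 with cisplatin against PBS, by 1.72 with NMN against cisplatin and by 1.65 with NR against cisplatin (exact two-sided permutation p = 0.0286 each, the smallest that 4 against 4 libraries can give; adjusted p = 0.0571 over 12 tests, which does not pass the threshold). Even with both ratios at this smallest p in every comparison with cisplatin alone, the adjusted p is 0.0571. The adjusted test therefore could not pass on these comparisons alone. Against PBS the ratio differed by -0.27 with NMN (exact permutation p = 0.2, adjusted p = 0.267) and by -0.34 with NR (exact permutation p = 0.0571, adjusted p = 0.098). Nadk2 made up 19.2% ± 1.69 of the summed TPM of both kinase genes with NMN, 18.4% ± 0.918 with NR, 6.31% ± 0.616 with cisplatin alone and 22.4% ± 3.14 with PBS (SD, n = 4 each). The sum itself was 93.4 ± 6.8, 93.9 ± 8.27, 132 ± 14.5 and 88.1 ± 7.36 TPM in those groups, and Nadk made up 31.0% ± 0.968, 31.4% ± 3.98, 51.1% ± 6.01 and 27.6% ± 0.964 of the 10 genes.

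**Figure D2:**
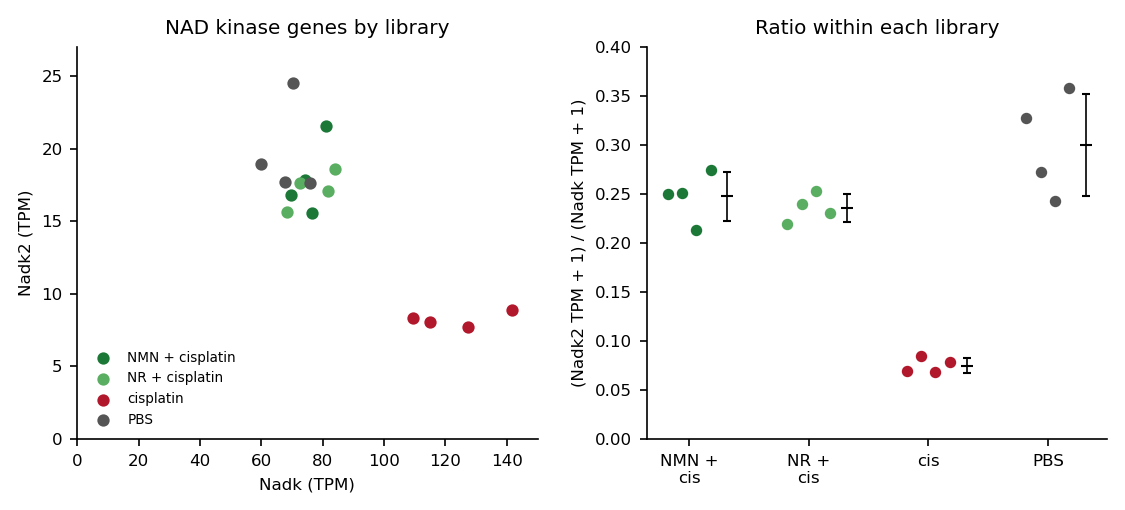
Left, TPM of Nadk2 (y axis) against TPM of Nadk (x axis), 1 point per library, coloured by group. Right, the ratio of Nadk2 to Nadk, each with 1 TPM added, per library with the mean ± SD of 4 libraries. The 4 cisplatin libraries stand apart at the lower right, with ratios of 0.0681 to 0.0843, below the 0.214 to 0.358 of the other 12.

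In GRCm38, Nadk lies on chromosome 4 from 155562378 to 155591001 on the plus strand, and Nadk2 on chromosome 15 from 9071260 to 9110891 on the plus strand. RefSeq (GRCm38.p6) gives Nadk a pair of start sites, and the promoter windows of 250 bases before to 50 after each are shown because Nadk is the one tested gene of the 10 that was higher with cisplatin, and TPM per gene does not say which start was used. Capitals mark matches to the motifs searched on both strands: the E-box CACGTG (in 7.15% of 32851 RefSeq promoter windows of this length), the GC box GGGCGG (35.7%), the CCAAT box CCAAT (37.4%), the antioxidant response element core TGACNNNGC (12.4%), the AP-1 site TGANTCA (7.81%) and the NRF1 site (0.971%). The first line is the window at chr4:155562131-155562430 and the second the window at chr4:155563565-155563864, both on the plus strand, 5′ to 3′.
Nadk, first start: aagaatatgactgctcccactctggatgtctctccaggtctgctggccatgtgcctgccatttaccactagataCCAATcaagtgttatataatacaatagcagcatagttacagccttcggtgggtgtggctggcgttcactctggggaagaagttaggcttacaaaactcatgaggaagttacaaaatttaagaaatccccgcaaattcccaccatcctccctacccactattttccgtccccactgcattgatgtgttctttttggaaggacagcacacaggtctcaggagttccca
Nadk, second start: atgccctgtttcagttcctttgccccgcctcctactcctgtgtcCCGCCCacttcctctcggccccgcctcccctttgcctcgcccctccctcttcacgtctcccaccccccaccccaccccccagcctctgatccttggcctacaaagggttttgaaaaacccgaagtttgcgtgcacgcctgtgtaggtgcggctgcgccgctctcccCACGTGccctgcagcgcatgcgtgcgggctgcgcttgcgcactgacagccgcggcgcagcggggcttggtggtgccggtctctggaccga
The first window held 46.7% G and C with 4 CpG dinucleotides and a CCAAT box at position -176 from the start, on the printed strand. The second held 67.0% G and C with 24 CpG dinucleotides, a GC box on the other strand at position -206 and an E-box at position -40. All promoter windows had a median of 52.7% and 7 CpG dinucleotides. A match is a description of the letters and not a shown site.

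On the salvage routes, the NR kinase gene Nmrk1 was lower with cisplatin and the nicotinamide route gene Nampt was not called. Nmrk1, which makes NMN from NR, measured 42.6, 57.3, 52.0 and 46.9 TPM with NMN, 36.6, 53.8, 45.3 and 43.8 TPM with NR, 28.5, 33.1, 26.9 and 28.9 TPM with cisplatin alone, and 45.1, 60.5, 55.7 and 53.0 TPM with PBS. The highest cisplatin library lay below the lowest of the other 12, and the other groups overlapped. Nmrk1 fell by 0.84 on the log2 scale with cisplatin against PBS (SE 0.132, limma adjusted p = 2.49e-05). It was higher by 0.74 with NMN than with cisplatin alone (limma adjusted p = 0.000167) and by 0.59 with NR (limma adjusted p = 0.00141). It made up 20.5% ± 3.02 of the summed TPM of the 10 genes with NMN, 18.3% ± 2.38 with NR, 12.2% ± 1.13 with cisplatin alone and 21.6% ± 1.55 with PBS.

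Nampt, which makes NMN from nicotinamide, measured 22.7, 31.6, 30.0 and 35.5 TPM with NMN, 28.7, 26.3, 30.9 and 36.1 TPM with NR, 31.3, 35.5, 24.7 and 37.7 TPM with cisplatin alone, and 23.99, 25.1, 29.9 and 33.1 TPM with PBS. All groups overlapped. The log2 change with cisplatin against PBS was 0.19 (95% interval -0.14 to 0.53, limma adjusted p = 0.31), and it was -0.12 after median-of-ratios scaling, so no direction can be given. The changes against cisplatin alone were -0.11 with NMN and -0.07 with NR (limma adjusted p = 0.603 and 0.736).

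Within libraries, the balance of Nampt and Nmrk1 differed between cisplatin and the other groups. The ratio of Nampt to Nmrk1, each with 1 TPM added, was 0.543, 0.559, 0.584 and 0.762 with NMN, 0.79, 0.499, 0.689 and 0.827 with NR, 1.1, 1.07, 0.922 and 1.29 with cisplatin alone, and 0.542, 0.424, 0.544 and 0.63 with PBS. Every cisplatin library lay above every other library, and the remaining groups overlapped. The log2 ratio differed by 1.04 with cisplatin against PBS, by -0.84 with NMN against cisplatin and by -0.66 with NR against cisplatin (exact two-sided permutation p = 0.0286 each; adjusted p = 0.0571, which does not pass). As with the kinases, the adjusted test could not pass on these comparisons alone. Against PBS the log2 ratio differed by 0.19 with NMN (exact permutation p = 0.343) and by 0.38 with NR (exact permutation p = 0.114).

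Nmrk1 lies on chromosome 19 from 18631950 to 18652428 on the plus strand and Nampt on chromosome 12 from 32819545 to 32853349 on the plus strand (GRCm38). The Nmrk1 promoter window (RefSeq, GRCm38.p6, chr19:18631766-18632065, plus strand) is printed beside those of Nadk as that of a gene that was lower with cisplatin, with the same motifs in capitals.
Nmrk1: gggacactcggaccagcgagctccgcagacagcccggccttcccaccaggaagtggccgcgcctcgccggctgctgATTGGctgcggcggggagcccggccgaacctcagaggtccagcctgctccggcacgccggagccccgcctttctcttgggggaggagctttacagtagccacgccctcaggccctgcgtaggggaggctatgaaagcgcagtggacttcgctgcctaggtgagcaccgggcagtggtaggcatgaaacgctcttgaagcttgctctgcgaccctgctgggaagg
It held 67.3% G and C, 23 CpG dinucleotides and a CCAAT box on the other strand at position -174 from the start.

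The NMN adenylyl transferase genes were not called in any comparison. Nmnat1, whose product sits in the nucleus, averaged 10.7 ± 2.26 TPM with NMN, 10.1 ± 2.5 TPM with NR, 9.83 ± 2.69 TPM with cisplatin alone and 9.55 ± 2.02 TPM with PBS (SD, n = 4 each), and all groups overlapped. Its log2 change with cisplatin against PBS was 0.02 (95% interval -0.45 to 0.48, limma adjusted p = 0.953), and -0.27 after median-of-ratios scaling. Nmnat2, an enzyme of neurons in the main, was listed at 0 in 5 libraries, and its highest value was 0.05 TPM with NMN, 0.13 TPM with NR, 0.1 TPM with cisplatin alone and 0.13 TPM with PBS. These values are too low to order the groups.

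Nmnat3, the form assigned to mitochondria, measured 10.9, 7.01, 10.7 and 6.89 TPM with NMN, 8.16, 8.13, 11.2 and 8.71 TPM with NR, 12.5, 13.5, 6.47 and 9.85 TPM with cisplatin alone, and 5.4, 7.93, 8.87 and 6.84 TPM with PBS. The cisplatin libraries spanned nearly the whole range, and cisplatin library 3 was the lowest of its group. The log2 change with cisplatin against PBS was 0.46 (95% interval 0.02 to 0.91, limma adjusted p = 0.0694). It passed the threshold without cisplatin library 3 (0.66, limma adjusted p = 0.00894) or without PBS library 3 (0.55, limma adjusted p = 0.0463), and was 0.17 after median-of-ratios scaling (limma adjusted p = 0.438). Nmnat1 made up 54.5% ± 7.33 of the summed TPM of the 3 NMN adenylyl transferase genes with NMN, 52.2% ± 6.88 with NR, 48.2% ± 3.03 with cisplatin alone and 56.6% ± 3.87 with PBS. Nmnat1 lies on chromosome 4 from 149467572 to 149485202 (minus strand), Nmnat2 on chromosome 1 from 152954993 to 153119261 (plus strand) and Nmnat3 on chromosome 9 from 98287435 to 98420438 (plus strand).

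Both genes of the nicotinic acid branch were lower with cisplatin. Nadsyn1, the last step of this branch, measured 11.6, 12.5, 15.1 and 13.4 TPM with NMN, 13.7, 13.4, 14.5 and 15.6 TPM with NR, 8.29, 8.79, 2.71 and 6.94 TPM with cisplatin alone, and 13.6, 13.7, 16.1 and 13.9 TPM with PBS. All cisplatin libraries lay below all others, and cisplatin library 3 was lowest. Nadsyn1 fell by 1.09 on the log2 scale with cisplatin against PBS (SE 0.222, limma adjusted p = 0.00037), and was higher than with cisplatin alone by 0.97 with NMN (limma adjusted p = 0.00144) and by 1.08 with NR (limma adjusted p = 0.000633). Without cisplatin library 3 these changes were -0.77, 0.65 and 0.77, and each stayed past the threshold.

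Naprt, the first step of the branch, measured 30.1, 26.1, 28.9 and 25.5 TPM with NMN, 28.3, 37.6, 42.8 and 26.3 TPM with NR, 16.04, 21.7, 17.8 and 20.9 TPM with cisplatin alone, and 27.7, 46.0, 36.8 and 27.7 TPM with PBS. The cisplatin libraries lay below all others, and the NR and PBS libraries were the most spread. Naprt fell by 0.80 on the log2 scale with cisplatin against PBS (SE 0.174, limma adjusted p = 0.000696), and was higher with NR than with cisplatin alone by 0.77 (limma adjusted p = 0.00147). It was also higher with NMN, by 0.52 (limma adjusted p = 0.0201), but this call was lost without cisplatin library 1 (0.44, limma adjusted p = 0.0646), without NMN library 1 (0.48, limma adjusted p = 0.0534), and without PBS library 1 and cisplatin libraries 1 and 3 (0.36, limma adjusted p = 0.18). In the annotation, Naprt shares 277 exonic bases with Eef1d on the same strand, so reads there could be counted for either gene.

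Nadsyn1 lies on chromosome 7 from 143795584 to 143822849 and Naprt on chromosome 15 from 75890956 to 75894481, both on the minus strand (GRCm38). The Nadsyn1 promoter window (RefSeq, GRCm38.p6, chr7:143822803-143823102, minus strand) is printed as that of a further gene that was lower with cisplatin.
Nadsyn1: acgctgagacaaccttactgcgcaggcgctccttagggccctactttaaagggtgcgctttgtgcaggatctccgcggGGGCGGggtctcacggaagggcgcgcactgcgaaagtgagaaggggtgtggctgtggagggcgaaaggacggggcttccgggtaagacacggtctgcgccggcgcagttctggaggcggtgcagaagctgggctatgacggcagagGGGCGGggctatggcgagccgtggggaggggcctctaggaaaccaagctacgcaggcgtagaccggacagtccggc
It held 65.7% G and C, 27 CpG dinucleotides and GC boxes at positions -172 and -26 from the start. Windows were matched for 7 of the 10 genes, 9 windows in all, and the AP-1 and NRF1 letters were in none of them. No window was available for Naprt, Nadk2 and Nnt, which were also lower with cisplatin.

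Nnt, the transhydrogenase of the inner mitochondrial membrane, was lower with cisplatin and was the most variable of the tested genes. It measured 11.3, 5.44, 4.77 and 17.9 TPM with NMN, 4.84, 13.02, 8.42 and 8.22 TPM with NR, 3.48, 0.21, 0.11 and 5.31 TPM with cisplatin alone, and 8.31, 7.15, 14.4 and 22.5 TPM with PBS. Cisplatin libraries 2 and 3 were near 0, and cisplatin library 4 lay below all PBS libraries but within the range of the NMN and NR libraries. Nnt fell by 2.37 on the log2 scale with cisplatin against PBS (SE 0.553, limma adjusted p = 0.00161), and was higher than with cisplatin alone by 1.96 with NMN (limma adjusted p = 0.00814) and by 1.89 with NR (limma adjusted p = 0.0109). The second of these calls was lost without NR libraries 3 and 4 (1.87, limma adjusted p = 0.0588). With a pseudocount of 0.1 TPM the changes were -3.49, 3.02 and 2.96, so their size depends on how values near 0 are treated. The SD was 62.2% of the mean with NMN, 38.9% with NR, 112% with cisplatin alone and 53.8% with PBS. Nnt lies on chromosome 13 from 119335448 to 119408997 on the minus strand, where GENCODE vM21 lists a second gene record of the same name that shares 3339 exonic bases with it; the counting of reads that match both is uncertain. A widely used inbred mouse substrain carries a deletion within Nnt, and the labels name no strain.

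**Figure D3:**
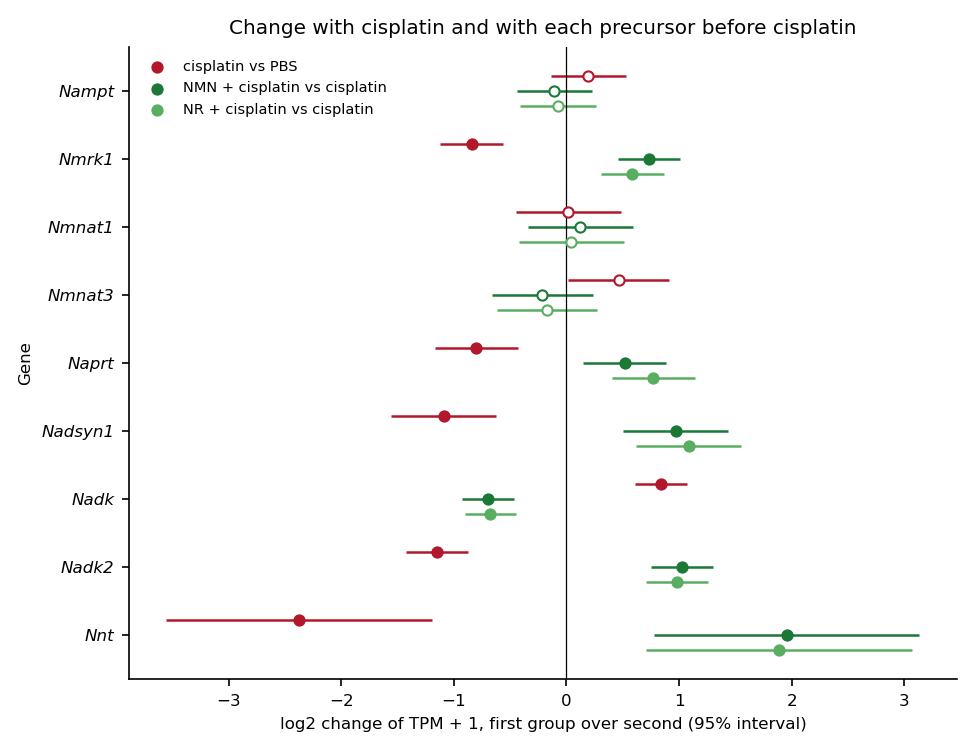
Log2 change of TPM + 1 (x axis, limma estimate with its 95% interval) of the 9 tested genes (y axis) for cisplatin against PBS, NMN + cisplatin against cisplatin and NR + cisplatin against cisplatin; filled points passed an adjusted p of 0.05. Nadk is filled to the right for cisplatin against PBS (0.84), and Nmrk1, Naprt, Nadsyn1, Nadk2 and Nnt are filled to the left (-0.80 to -2.37); all comparisons shown share the cisplatin libraries.

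Against cisplatin alone, 5 of the 9 tested genes were higher with NMN (Nmrk1, Naprt, Nadsyn1, Nadk2 and Nnt) and 1 was lower (Nadk); of all genes tested, 15.1% were called higher and 34% lower. The groups did not overlap for 5 of the 9 genes, against 44.3% of all genes tested, and Nnt was called although its groups overlapped. The median log2 change was 0.52, beside -0.23 over all genes. With NR the same 5 genes were higher than with cisplatin alone and Nadk was lower, where 14.4% and 32.2% of all genes tested were called higher and lower. The groups did not overlap for 5 of the 9 genes, against 41.8% of all genes, and the median log2 change was 0.59, beside -0.20 over all genes. In all, 1954 genes were higher and 4405 lower with NMN, and 1870 higher and 4174 lower with NR; after median-of-ratios scaling the counts were 2908 and 3022 with NMN and 2784 and 2867 with NR. Beside these changes, all 10 proximal tubule markers were higher with NMN and with NR than with cisplatin alone, and their part in the result was not tested. Both comparisons use the 4 cisplatin libraries that also stand against PBS, so the directions are not independent of those with cisplatin against PBS.

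Against PBS, none of the 9 tested genes was called with NMN (limma, adjusted p from 0.473 to 0.861; 0 of 9 at an unadjusted p under 0.05), where 6% of all genes tested were called in either direction. The log2 changes ran from -0.42 for Nnt to 0.25 for Nmnat3, with a median of -0.11 beside 0.04 over all genes. None was called with NR against PBS (limma, adjusted p from 0.268 to 0.994; 0 of 9 at an unadjusted p under 0.05), where 10% of all genes were called. The gene nearest to the threshold was Nmrk1, at 44.9 ± 7.06 TPM with NR and 53.6 ± 6.43 TPM with PBS (SD, n = 4 each; log2 change -0.26, 95% interval -0.53 to 0.02, limma adjusted p = 0.268). After median-of-ratios scaling it was called lower with NR (-0.36, limma adjusted p = 0.0473). In the same comparisons 2 of the 10 proximal tubule markers were lower with NMN than with PBS, and 6 with NR. Of all 12960 genes tested, 15 were lower with NMN and 157 with NR. A missed threshold does not show equal levels: the 95% interval of the log2 change was -0.09 to 0.37 for Nadk and -1.59 to 0.76 for Nnt with NMN against PBS.

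NMN and NR, which differ by a phosphate group, were compared over the same 9 genes, with no dose given for either. None was called (limma, adjusted p = 1.00 for each; 0 of 9 at an unadjusted p under 0.05), and 0% of all genes tested were called, with 370 at an unadjusted p under 0.05. The estimated log2 differences of NMN from NR ran from -0.25 for Naprt (27.6 ± 2.22 TPM with NMN and 33.7 ± 7.76 TPM with NR; 95% interval -0.62 to 0.11) to 0.15 for Nmrk1 (49.7 ± 6.35 TPM with NMN and 44.9 ± 7.06 TPM with NR; 95% interval -0.13 to 0.43). The interval was narrowest for Nadk, from -0.25 to 0.21, and widest for Nnt, from -1.11 to 1.25, so for Nnt a difference of more than 1 log2 unit either way was not excluded by its interval. The log2 ratio of Nadk2 to Nadk differed by 0.07 (exact permutation p = 0.486) and that of Nampt to Nmrk1 by -0.18 (exact permutation p = 0.429).

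By level, Nadk was first in every group, and Nmnat2 was last. With NMN the order by mean TPM was Nadk (75.4 ± 4.77), Nmrk1 (49.7 ± 6.35), Nampt (29.9 ± 5.36), Naprt (27.6 ± 2.22), Nadk2 (17.9 ± 2.6), Nadsyn1 (13.2 ± 1.5), Nmnat1 (10.7 ± 2.26), Nnt (9.85 ± 6.12) and Nmnat3 (8.87 ± 2.22). With NR it was the same down to Nmnat1 except that Naprt (33.7 ± 7.76) stood before Nampt (30.5 ± 4.17), and Nmnat3 (9.04 ± 1.44) stood before Nnt (8.63 ± 3.36). With cisplatin alone the order by mean TPM was Nadk (123 ± 14.2), Nampt (32.3 ± 5.71), Nmrk1 (29.4 ± 2.67), Naprt (19.1 ± 2.65), Nmnat3 (10.6 ± 3.16), Nmnat1 (9.83 ± 2.69), Nadk2 (8.25 ± 0.477), Nadsyn1 (6.68 ± 2.76) and Nnt (2.28 ± 2.56). With PBS it was Nadk (68.4 ± 6.54), Nmrk1 (53.6 ± 6.43), Naprt (34.5 ± 8.77), Nampt (28.0 ± 4.24), Nadk2 (19.7 ± 3.25), Nadsyn1 (14.3 ± 1.21), Nnt (13.1 ± 7.04), Nmnat1 (9.55 ± 2.02) and Nmnat3 (7.26 ± 1.49). Gaps between neighbours were smaller than the larger SD of the pair for Nampt with Naprt, Nmnat1 with Nnt and Nnt with Nmnat3 in the NMN group, and for Naprt with Nampt, Nmnat1 with Nmnat3 and Nmnat3 with Nnt in the NR group. With cisplatin this held for Nampt with Nmrk1 and for each neighbouring pair from Nmnat3 down to Nadsyn1 and for Nnt with Nmnat2, and with PBS for Naprt with Nampt, Nadsyn1 with Nnt and Nnt with Nmnat1. The sources used here do not give the gene lengths behind the TPM, so neighbours in these orders may be set by them.

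The genes whose profile over the 16 libraries was closest to that of each called gene were found by the root mean square difference of log2(TPM + 1) centred on each gene's mean, among 8663 genes with a mean of at least 5 TPM. For Nadk these were Calu, which encodes a calcium-binding protein of the secretory pathway (0.0800), and the proteasome subunit gene Psmd2 (0.0834). For Nmrk1 they were Sdhb, the iron-sulfur subunit of succinate dehydrogenase (0.0772), and Cisd1, which encodes an outer mitochondrial membrane protein (0.101). For Nadk2 they were the nucleotide sugar transporter gene Slc35a3 (0.0864) and Arl6ip1 (0.0984), and for Naprt the growth factor gene Mdk (0.178) and the dienoyl-CoA isomerase gene Ech1 (0.183). Nadsyn1 was closest to Mturn (0.166) and Aig1 (0.197), and Nnt to Dpyd, of pyrimidine breakdown (0.580), and Slc46a3 (0.601), the largest differences. They were not scaled to each gene's own root mean square spread, which was 1.19 for Nnt and 0.346 to 0.544 for the others. Likeness here is a description over libraries that share the group differences.

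Around these genes, the route from tryptophan was lower at its tested genes. Tdo2 and Ido1, listed genes of its first step, were too low to be tested, with highest values of 0.14 TPM (with NMN) and 0.4 TPM (with NR). All 7 tested genes of the 9 listed were lower with cisplatin than with PBS (median log2 change -1.84), all 7 were higher with NMN and with NR than with cisplatin alone, and against PBS 0 were lower with NMN and 4 with NR. Over all genes tested, 18.6% were lower with cisplatin than with PBS, and 15.1% and 14.4% were higher with NMN and with NR than with cisplatin alone. Against PBS, 15 of all 12960 genes tested were lower with NMN and 157 with NR. Acmsd, which diverts an intermediate of this route away from NAD, averaged 1.09 ± 0.162 TPM with cisplatin and 50.6 ± 6.72 TPM with PBS (log2 change -4.62, limma adjusted p = 4.22e-14). Kmo, which hydroxylates kynurenine, averaged 5.94 ± 1.8 TPM with cisplatin and 49.7 ± 3.84 TPM with PBS, and Haao, a later step, 30.5 ± 12.1 TPM and 169 ± 12.7 TPM in those groups. Afmid, which forms kynurenine, averaged 11.6 ± 1.01 TPM with cisplatin and 44.3 ± 4.6 TPM with PBS. Summed TPM of the list was 280 to 331 with NMN, 256 to 293 with NR, 44.5 to 86.0 with cisplatin alone and 340 to 394 with PBS, lowest with cisplatin alone, as were the proximal tubule markers, whose part in the result was not tested.

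Genes that bring precursors into cells or dispose of nicotinamide went both ways: 4 were higher and 5 lower of 10 tested (14 listed) with cisplatin against PBS, beside 40.7% higher and 18.6% lower over all genes tested. Slc5a8, a carrier that takes up nicotinic acid among other monocarboxylates, averaged 10.3 ± 3.72 TPM with cisplatin and 64.7 ± 15.2 TPM with PBS, and Enpp1, an ectonucleotidase, 2.03 ± 0.301 TPM and 6.9 ± 1.46 TPM. Nt5e (CD73), which can turn extracellular NMN into NR, averaged 37.6 ± 4.81 TPM with cisplatin and 18.6 ± 2.81 TPM with PBS (log2 change 0.99, limma adjusted p = 5.26e-06). Pnp2, a purine nucleoside phosphorylase gene, averaged 14.3 ± 2.23 TPM with cisplatin and 0.333 ± 0.192 TPM with PBS, but its reads may be shared with its near-identical copy Pnp. With NMN and with NR against cisplatin 5 of these 10 genes were higher and 4 lower, where 15.1% of all genes were higher and 34% lower with NMN, and 14.4% and 32.2% with NR. Against PBS 1 was higher with each precursor, where 763 of all 12960 genes tested were higher with NMN and 1139 with NR.

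Of the genes whose products cleave NAD, 6 were higher and 1 lower of 15 tested (16 listed) with cisplatin against PBS, where 40.7% of all genes tested were higher and 18.6% lower, so the share that was higher lay near that of all genes. Bst1, a cell-surface NAD glycohydrolase, averaged 22.5 ± 2.89 TPM with cisplatin and 1.58 ± 1.09 TPM with PBS (log2 change 3.26, limma adjusted p = 9.56e-08). Sirt3, the mitochondrial deacetylase, was the 1 lower gene, at 24.7 ± 5.66 TPM with cisplatin and 68.7 ± 12.8 TPM with PBS. Parp14, a mono-ADP-ribosyltransferase, averaged 6.07 ± 0.708 TPM with cisplatin and 1.93 ± 0.54 TPM with PBS, and Sirt6, a nuclear deacylase, 16.1 ± 2.52 TPM and 5.36 ± 1.89 TPM. With NMN against cisplatin 1 was higher and 6 lower (15.1% and 34% of all genes), and with NR 1 was higher and 5 lower (14.4% and 32.2% of all genes). Against PBS none was called with NMN and 1 was higher with NR. Of all 12960 genes tested, 778 were called in either direction with NMN and 1139 were higher with NR. Bst1 is also a gene of myeloid cells. Macrophage markers summed to between 45.4 and 79.6 TPM with NMN, 60.95 and 67.7 TPM with NR, 103 and 135 TPM with cisplatin alone, and 26.1 and 52.9 TPM with PBS. The high sum with cisplatin was that of Cd68 (105 ± 11.3 TPM with cisplatin and 3.48 ± 2.1 TPM with PBS, higher), while Csf1r was lower (5.15 ± 0.884 TPM with cisplatin and 17.3 ± 4.61 TPM with PBS). C1qa (10.5 ± 7.36 TPM with cisplatin and 18.1 ± 8.16 TPM with PBS) and Adgre1 (0.605 ± 0.615 TPM with cisplatin and 0.945 ± 0.433 TPM with PBS) were not called, and the part of these cells in the result was not tested.

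Among genes that use or make NADPH or repair these cofactors, 6 were higher and 5 lower of 17 with cisplatin against PBS, beside 40.7% higher and 18.6% lower over all genes tested, so the share that was higher was not above that of all genes. The cytosolic NADPH makers of the pentose phosphate pathway were higher: G6pdx averaged 37.5 ± 1.72 TPM with cisplatin and 11.5 ± 1.35 TPM with PBS, and Pgd 161 ± 11.1 TPM and 50.9 ± 5.96 TPM. Txnrd1, the cytosolic thioredoxin reductase, averaged 199 ± 21.7 TPM with cisplatin and 45.4 ± 7.12 TPM with PBS (log2 change 2.12, limma adjusted p = 4.60e-10). Idh2, the mitochondrial NADP-dependent isocitrate dehydrogenase, was lower, at 71.5 ± 12.4 TPM with cisplatin and 281 ± 34.6 TPM with PBS (log2 change -1.97, limma adjusted p = 1.15e-09). The cytosolic NADPH makers Me1 (-1.30, limma adjusted p = 1.75e-06) and Idh1 (-0.50, limma adjusted p = 0.00125) were lower as well. The mitochondrial Glud1 was higher (0.62, limma adjusted p = 0.00236), so direction did not follow compartment in this list. With NMN and with NR against cisplatin 5 of the 17 were higher and 5 lower, beside 15.1% and 34% of all genes with NMN and 14.4% and 32.2% with NR. Against PBS 2 were higher with NMN and 3 with NR, Pgd (73.0 ± 5.27 TPM with NMN and 84.0 ± 8.48 TPM with NR) and Txnrd1 (80.0 ± 14.3 TPM with NMN and 102 ± 12.7 TPM with NR) among them, and 1 was lower with NR. Over all 12960 genes tested, 763 were higher with NMN and 1139 with NR, and 157 were lower with NR. None of the genes in these 4 lists was called between NMN and NR.

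**Figure D4:**
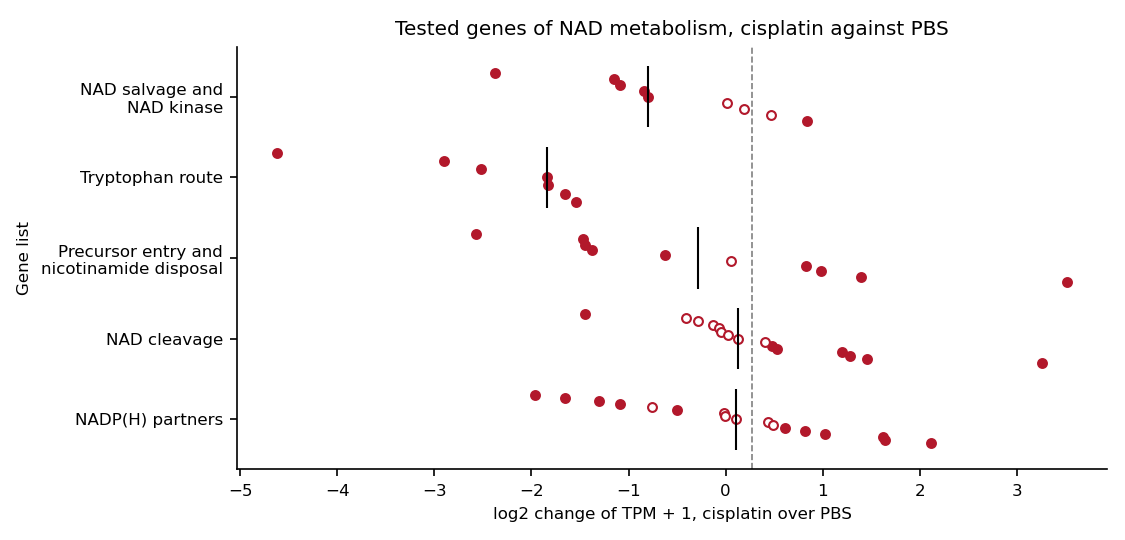
Log2 change of TPM + 1 with cisplatin over PBS (x axis) for the tested genes of 5 lists (y axis), 1 point per gene; filled points passed an adjusted p of 0.05, the black bar is the median of each list and the dashed line the median of all tested genes (0.27). The salvage and kinase genes have a median of -0.80, and all 7 tested genes of the tryptophan route lie at the left, with a median of -1.84.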

How the data were processed

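RNA of whole kidneys was sequenced from 16 samples in 4 groups of 4, taken from the sample titles. The authors' deposited values were TPM with 2 decimals, for 23982 entries, of which 94 shared a symbol and were summed. The submitters' processing notes name STAR 2.4.1d, DESeq2 1.10.1, HTSeq 0.6.1 and Trim Galore, and the builds mm10 and GRCm38. The sources used here give neither the roles of these tools nor the annotation, the strand setting or the gene lengths behind the TPM. TPM keeps no depth, so no counting interval can be given. Since each library has a fixed total, the values of other genes go up where abundant transcripts fall.

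The 12960 genes that reached 1 TPM in 4 or more libraries were tested. All comparisons came from 1 model of log2(TPM + 1), fitted to 4 group means with limma 3.58.1 in R 4.3.3 (trend and robust, 12 residual degrees of freedom). P-values were adjusted by Benjamini-Hochberg over these genes, with calls at an adjusted p under 0.05. Rose, fell, higher and lower refer to such calls where a test is given, and n = 4 for each group mean. A pseudocount of 1 understates the change of low genes. The 2 ratios per library were compared by exact two-sided permutation tests (scipy 1.17.1), adjusted over 12 tests. The procedure was tested on simulated data.

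The 10 genes and all lists were chosen with earlier results of these data known. All 10 genes are named in each comparison. From each list of other NAD genes up to 4 are named, those with the smallest adjusted p with cisplatin against PBS. Me1, Idh1 and Glud1 are named in addition, as called genes whose direction did not follow compartment, and Tdo2 and Ido1 as genes not tested. For each called gene the 2 genes closest in profile are named. One listed gene, Naxe, was looked up under its older symbol Apoa1bp, which the table uses. Positions came from GENCODE vM21 (GRCm38) and promoter windows from RefSeq (GRCm38.p6). Alternatives were median-of-ratios scaling, quantile scaling, values without the 13 mitochondrially encoded mRNAs, a pseudocount of 0.1 TPM, a minimum of 5 TPM, no minimum, limma without trend and robust, array weights, fits of only the groups compared, the replicate number as a block, each library left out in turn, and 2 sets of libraries left out together.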

Additional observations from a re-analysis of the deposited data

Results flagged for a closer look

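Nadsyn1 in PBS library 3, at 16.1 TPM, stood apart from the other PBS libraries, which measured 13.6, 13.7 and 13.9 TPM. The gap to its neighbour was large for the range of the group of 4 (Dixon's test at 95%). It was the 1 such value among 44 groups of 4 values looked at, and chance gives about 1 in 20. Without this library Nadsyn1 still fell by 1.04 on the log2 scale with cisplatin against PBS (limma adjusted p = 0.00163).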

How the results depend on the processing

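Of the changes of the 9 tested genes over all comparisons and alternatives, 1505 kept their direction, where called, and their side of the threshold, 3 passed it in addition, 4 no longer passed it, and no called change turned its direction. The count of genes higher with cisplatin than with PBS was 1 or 2 when each library was left out in turn, with Nmnat3 added without cisplatin library 3 or PBS library 3. The count lower with NR than with PBS was 1 after median-of-ratios scaling (Nmrk1) instead of 0. The lost calls were Naprt with NMN against cisplatin (3 alternatives) and Nnt with NR against cisplatin (1 alternative), given beside those genes. The cause was not tested. The estimates of Nampt and Nmnat1, never called, changed sign with the scaling: with cisplatin against PBS, Nampt was at -0.12 after median-of-ratios scaling, -0.13 after quantile scaling and -0.05 without the mitochondrially encoded mRNAs.

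Over all genes, 3709 (median-of-ratios) and 3700 (quantile) were lower with cisplatin than with PBS instead of 2415. Against PBS, 5 to 132 genes were lower with NMN instead of 15, and 56 to 515 with NR instead of 157; 505 were higher with NMN without PBS library 1 and cisplatin libraries 1 and 3, and 506 without NMN library 3, instead of 763, and 641 were higher with NR without NR libraries 3 and 4 instead of 1139. Between NMN and NR, 1 gene was lower with NMN when only these groups were fitted, or without cisplatin library 2, instead of 0. With the replicate number as a block, the counts of NAD genes stayed as they were (1 higher and 5 lower with cisplatin against PBS), while 51 of all genes were lower with NMN than with PBS and 283 with NR. Same-numbered libraries deviated together with correlations of -0.13 to 0.287, and in no comparison did all 4 numbers exceed 0.1. The main model therefore does not pair the libraries, which does not show that same-numbered libraries are unrelated. As a hint from the data, 3 of 4 exceeded 0.1 for NMN with PBS and for NMN with NR, where 7 and 8 of 8 libraries correlated best with their own number. For NR with PBS 2 of 4 exceeded 0.1, and 6 of 8 libraries correlated best with their own number. For cisplatin with PBS it was 0 of 8. Thick ascending limb marker sums in libraries 1 to 4 were 467, 459, 754 and 1188 TPM with PBS. They were 373, 426, 581 and 988 TPM with NMN, and 312, 378, 507 and 805 TPM with NR. Whether the number marks a shared batch was not tested. By number, Nmrk1 was lower with NR than with PBS in 4 of 4, and lower with NMN than with PBS in 4 of 4, as was Nadk2 with either precursor. Nmrk1 was also higher with NMN than with NR in 4 of 4. Against PBS, Nadsyn1 was lower and Nadk higher with NMN in 4 of 4, and Nampt and Nmnat3 were higher with NR in 4 of 4. With the block none of these was called (Nmrk1 with NR against PBS, limma adjusted p = 0.106). No ratio passed its adjusted threshold under any alternative. Leaving out a library raises the smallest p that its test can give to 0.0571, and the block to 0.125.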

Other observations

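Nnt was highest in PBS library 4 (22.5 TPM) and NMN library 4 (17.9 TPM). These libraries also had the highest summed thick ascending limb markers, 988 TPM in NMN library 4 and 1188 TPM in PBS library 4. In the NR group Nnt was highest in library 2 (13.02 TPM), where the summed markers were 378 TPM, and the highest sum was in library 4 (805 TPM), with Nnt at 8.22 TPM. With cisplatin alone Nnt was 5.31 TPM in library 4 and 0.21 TPM in library 2, whose marker sums were 607 and 713 TPM. Distal convoluted tubule marker sums were also highest in library 4 of the PBS (629 TPM), NMN (488 TPM) and NR (425 TPM) groups. The high sums in these libraries were therefore not particular to the thick ascending limb. The part of either segment in the spread of Nnt was not tested.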
